A study of Mus musculus with 2 samples.

Results

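CD4 T cells, the T lymphocytes that carry the co-receptor CD4, were picked out of single-cell RNA profiles of mouse small intestine by the transcripts each cell held. A cell was taken as a CD4 T cell when it had at least 1 UMI (unique molecular identifier, a tag that marks a single captured RNA molecule) of Cd3e, Cd3d or Cd3g and at least 1 UMI of Cd4. It also had to have 0 UMIs of Cd8a, Cd8b1, Trdc, C1qa, C1qb and C1qc, which mark CD8 T cells, gamma-delta T cells and macrophages. Kept cells were barcodes with 500 or more UMIs and 200 or more genes, in which mitochondrial genes gave no more than 25% of UMIs. The rule found 107 CD4 T cells among 15242 kept cells, which were 74 of 7913 cells of the model library and 33 of 7329 cells of the control library.

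The study held 1 library labelled model and 1 labelled control, and its title links it to bioactive compounds of CB001, simulated microgravity and radiation. The labels give neither the strain, sex or age of the mice, nor the treatment of the model animal, the number of animals per library or the part of the intestine used, and no library labelled with the compound was analysed here. The submitters freed the intestine of mesentery and Peyer's patches, rinsed it, took cells off with EDTA and then with collagenase A and DNase I, and passed them through a strainer before 10x Genomics libraries were made and sequenced on an Illumina NovaSeq instrument. With 1 library per group no difference between the groups has a replicate check, no test was made, and every interval below is a 95% interval for counting error alone.

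CD4 T cells recognise peptides on MHC class II through the T cell receptor and act mainly through cytokines. In the intestine most of them lie in the lamina propria, beneath an epithelium that holds CD8 T cells and gamma-delta T cells. Helper subsets are told apart by the transcription factor and cytokine they use: T-bet (Tbx21) with interferon gamma for T helper 1, interleukin 17 for T helper 17, GATA3 with interleukins 4, 5 and 13 for T helper 2, BCL6 with CXCR5 for follicular helper cells, and FOXP3 for regulatory cells. Effector cells can also make interleukin 10, which restrains inflammation, and interleukin 21, which acts on B cells and CD8 T cells.

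The markers of the class that the rule did not use bore out the name. Icos, a co-stimulatory receptor, had a UMI in 73.0% of the CD4 T cells of the model library and 69.7% of those of the control library. Cd28, the main co-stimulatory receptor of T cells, had one in 66.2% of the model and 66.7% of the control members, Cd40lg, the ligand that licenses B cells and dendritic cells, in 29.7% of the model and 48.5% of the control members, and Cd5, which sets the threshold of receptor signalling, in 37.8% of the model and 54.5% of the control members. At least 2 of these 4 genes were seen in 66.2% of CD4 T cells in the model library and 72.7% in the control library. The same was true of 24.2% (model) and 17.7% (control) of CD8 alpha-beta T cells, 1.38% (model) and 1.25% (control) of CD8 alpha-alpha T cells, 0.33% (model) and 0.13% (control) of gamma-delta T cells, and 0.03% (model) and 0.09% (control) of cells with an Epcam UMI and no CD3 UMI, which are epithelial and should lack these genes. Trac, the constant region of the T cell receptor alpha chain, had a UMI in 78.4% of CD4 T cells in the model library and 81.8% in the control library.

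The members lay close to the limits of the rule. Exactly 1 Cd4 UMI was found in 40 members of the model library and 17 of the control library, exactly 2 in 20 model and 10 control members, exactly 3 in 12 model and 5 control members, and 4 or more in 2 model and 1 control member. Just outside the rule, 621 cells of the model library and 635 of the control library met every other condition but had no Cd4 UMI. Cells that carry CD4 but gave no Cd4 UMI may be among them, and how many was not measured. The median depth of the CD4 T cells was 2494 UMIs with 1227.5 genes seen in the model library, and 2815 UMIs with 1326 genes seen in the control library. Their mitochondrial share had a median of 3.76% in the model library and 3.79% in the control library, whereas that of kept cells was 5.38% in the model library and 10.8% in the control library. The libraries shared 28 barcodes, of which 1 belonged to a member, and no barcode was a member in both.

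Several members also carried RNA of another lineage, and these weigh heavily in any sum over cells. A member was called mixed, by limits chosen after the data were seen, when at least 1% of its UMIs came from B cell, plasma cell, enterocyte or goblet and Paneth cell markers other than immunoglobulin genes, or when it held at least 10 UMIs of macrophage, dendritic cell or stromal markers. This applied to 9 members of the model library and 7 of the control library. They held 28.9% of all UMIs of CD4 T cells in the model library and 65.1% in the control library. A single control barcode had 101077 UMIs, 47.0% of the UMIs of the 33 control members, with 1269 UMIs of enterocyte markers, 2 of T lineage genes and 1 of Cd4. In the model library the deepest mixed barcodes had 21435 UMIs, led by plasma cell markers, and 20132 UMIs, led by enterocyte markers.

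Without the mixed barcodes 65 model and 26 control cells remained, with 198148 model and 75216 control UMIs. The T lineage genes took 0.580% of their UMIs in the model library and 0.667% in the control library, and every remaining cell lay between 0.226% and 1.26% in the model library and between 0.325% and 1.14% in the control library. The rule set Cd8a, Cd8b1, Trdc and the C1q genes to 0. Of the CD8 markers it did not use, Eomes and Crtam were at 0, but Gzmk was seen, with 0.003% (model) and 0.009% (control) of UMIs. Of the gamma-delta markers Trdv4 and Trgv7 were at 0, whereas Trgc1 and Trgc2 were each seen in 1 model and 1 control cell. The dendritic cell markers Flt3, Itgax, Zbtb46, Xcr1 and Clec9a were at 0, but 5 of 12 such markers were seen in the model library and 4 in the control library. Of 10 B cell markers 1 was seen in the model library and 0 in the control library. Enterocyte markers still gave 0.138% of UMIs in the model library and 0.213% in the control library, and goblet and Paneth cell markers 0.050% in the model library and 0.128% in the control library. Gene levels are therefore given without the mixed barcodes, and lists whose median turned over all members are given with both values. The 2 deepest remaining model cells had 23608 and 13269 UMIs, whereas no remaining control cell passed 4620.

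**Figure D1:**
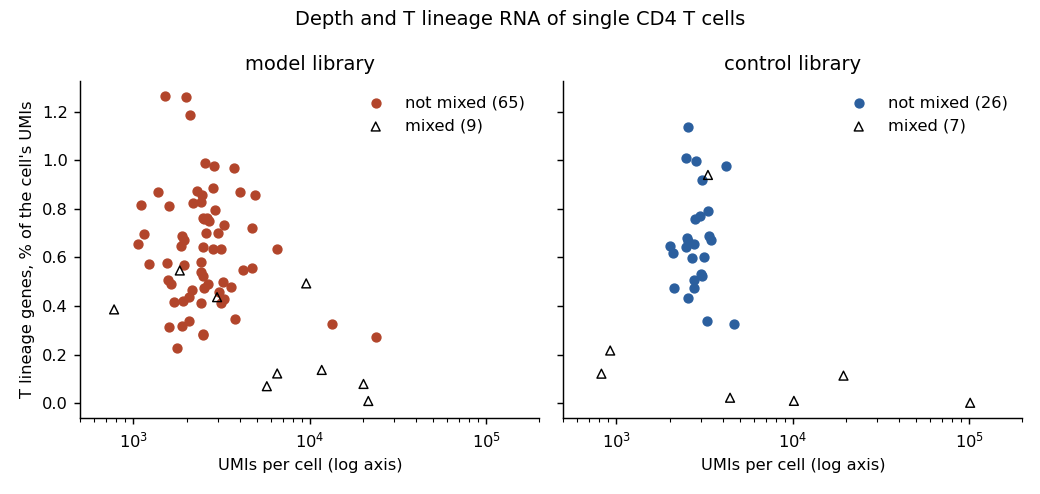
Each point is 1 CD4 T cell, with its total UMIs on a log axis and the percent of its UMIs in T lineage genes, in the model library (left) and the control library (right). Filled circles are cells that were not mixed and open triangles are the 9 model and 7 control mixed barcodes, of which the deepest control one has 101077 UMIs and almost no T lineage UMIs.

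CD4 T cells were a small class, and they took a larger share of the model library. They made up 0.935% (0.735 to 1.17, exact Clopper-Pearson interval) of kept cells in the model library and 0.450% (0.310 to 0.632) in the control library, a ratio of 2.08 (1.36 to 3.23). Among kept cells with a CD3 UMI, 3027 in the model library and 2112 in the control library, they made up 2.44% in the model library and 1.56% in the control library, a ratio of 1.56 (1.02 to 2.44). The difference was smaller once the number of T cells was taken into account. Without mixed barcodes on either side, 2.77% of CD3-positive cells in the model library and 2.19% in the control library were CD4 T cells, a ratio of 1.26 (0.79 to 2.07) whose interval spans 1. With a mitochondrial limit of 10%, which removes more of the control library, the share of kept cells had a ratio of 1.45 (0.935 to 2.31). A share moves with every other class in the library, and more CD4 T cells and fewer cells of other kinds cannot be told apart. The Cd4-negative cells with at least 2 of Icos, Cd28, Cd40lg and Cd5, chosen by the markers and not by Cd4, made up 0.404% of the model library (32 cells) and 0.246% of the control library (18 cells), a ratio of 1.65 (0.897 to 3.12).

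Set against the other T cells of the same library, the CD4 T cells stood apart by helper cytokines and co-stimulatory receptors, and by the near absence of natural killer receptors. These differences describe cells that were chosen by Cd4, Cd8a, Cd8b1 and Trdc, and those genes are left out. Levels are given as CPM, the UMIs of a gene in the summed cells scaled to the same total in every class with no correction for length, and a gene counted as different at 1.5-fold or more with an interval that excludes 1. Against 240 model and 113 control CD8 alpha-beta T cells, 8.84% of 5374 genes were higher and 5.51% lower in CD4 T cells of the model library, and 7.05% of 3658 genes were higher and 6.75% lower in those of the control library, without mixed barcodes. In both libraries 74 genes were higher and 65 lower. Over all members 7.25% of genes were higher and 5.41% lower in the model library, and 14.8% and 12.4% in the control library.

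Il21, the helper cytokine, led the genes higher in CD4 T cells. It had 77 UMIs in CD4 T cells and 1 in CD8 alpha-beta T cells of the model library (389 and 1.56 CPM), and 44 and 1 in the control library (585 and 2.49 CPM). Tnfrsf4, the co-stimulatory receptor OX40, had 72 UMIs against 1 in the model library and 17 against 0 in the control library, which is at least 30.2-fold higher with the 0 set to 3 counts. Cd40lg had 32 UMIs against 1 in the model library and 25 against 1 in the control library, so a UMI of it was rare outside CD4 T cells.

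Maf, a transcription factor that drives Il10 and Il21 in helper cells, stood at 1327 CPM in CD4 T cells and 40.6 CPM in CD8 alpha-beta T cells of the model library, a ratio of 32.7 (21.8 to 51.0). In the control library it stood at 1436 and 17.4 CPM, a ratio of 82.3 (38.6 to 210). Epithelial cells held Maf at 236 CPM in the model and 268 CPM in the control library, below the CD4 T cells, although 49.2% (model) and 50.8% (control) of those deeper cells had a Maf UMI. Il10 had 37 UMIs against 2 in the model library, a ratio of 59.9 (15.4 to 513), and 67 against 5 in the control library, a ratio of 71.5 (29.2 to 227). Icos was 4.21 times as high in CD4 T cells in the model library (3.31 to 5.37) and 13.4 times as high in the control library (9.16 to 20.0). The other genes named by the rule for size were Odc1, an enzyme of polyamine synthesis (ratios of 6.61 in the model and 7.64 in the control library), Ly6a, the surface protein Sca-1 (4.03 model, 6.94 control), Nfkbiz, a regulator of NF-kB targets (4.17 model, 5.92 control), and Tmem154 (7.44 model, 11.7 control).

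Genes of intraepithelial killer cells were lower in CD4 T cells. Gzma, which encodes granzyme A, stood at 1388 CPM in CD4 T cells and 11624 CPM in CD8 alpha-beta T cells of the model library, and at 864 and 16004 CPM in the control library. Klrd1, the CD94 receptor, had 4 UMIs against 213 in the model library and 0 against 128 in the control library, at least 8.0-fold lower. Cd7 had 30 UMIs against 521 in the model library and 0 against 323 in the control library, at least 20.2-fold lower. Itgae, the CD103 chain that binds E-cadherin on epithelium, had 7 UMIs against 332 in the model library, a ratio of 0.068, and 9 against 271 in the control library, a ratio of 0.177. Ccl5, a chemokine of activated T cells, was abundant but lower, at 6026 against 24924 CPM in the model library and 4068 against 18658 CPM in the control library. Trgc2, Trgc4, Dapk2, Ncald and Cd244a completed the 10 genes.

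The contrast with gamma-delta and CD8 alpha-alpha T cells was steeper for some single genes. In the control library smaller shares of genes differed than against CD8 alpha-beta T cells, but out of more genes measured. There 427 genes were higher and 261 lower against gamma-delta T cells, and 399 and 275 against CD8 alpha-alpha T cells. Against CD8 alpha-beta T cells the numbers were 258 and 247. The shares therefore do not rank the classes by likeness to CD4 T cells. Against gamma-delta T cells (1208 model and 773 control cells), 8.67% of 9410 genes were higher and 6.34% lower in CD4 T cells of the model library, and 4.96% of 8610 genes were higher and 3.03% lower in those of the control library. For CD8 alpha-alpha T cells (796 model and 399 control cells) these shares were 9.02% and 7.34% of 8650 genes in the model library, and 6.26% and 4.31% of 6378 genes in the control library. Over all members the shares of genes higher and lower in CD4 T cells were 7.39% and 5.65% against gamma-delta T cells in the model library and 11.4% and 8.91% in the control library. Against CD8 alpha-alpha T cells they were 7.71% and 6.73% in the model library and 12.4% and 11.2% in the control library. Cd28 had a CD4 over gamma-delta ratio of 148 in the model library and 286 in the control library, Ly6a one of 199 in the model library, and Cd2, an adhesion receptor, ratios of 106 in the model and 187 in the control library. Fcer1g, a signalling adaptor of innate receptors, had 15 UMIs in CD4 T cells and 6125 in gamma-delta T cells of the model library, and 1 and 3673 in the control library. Ifng was 26 times as high in CD4 T cells as in CD8 alpha-alpha T cells of the model library (19.5 to 35.1) and 63.6 times as high in the control library (40.8 to 103).

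**Figure D2:**
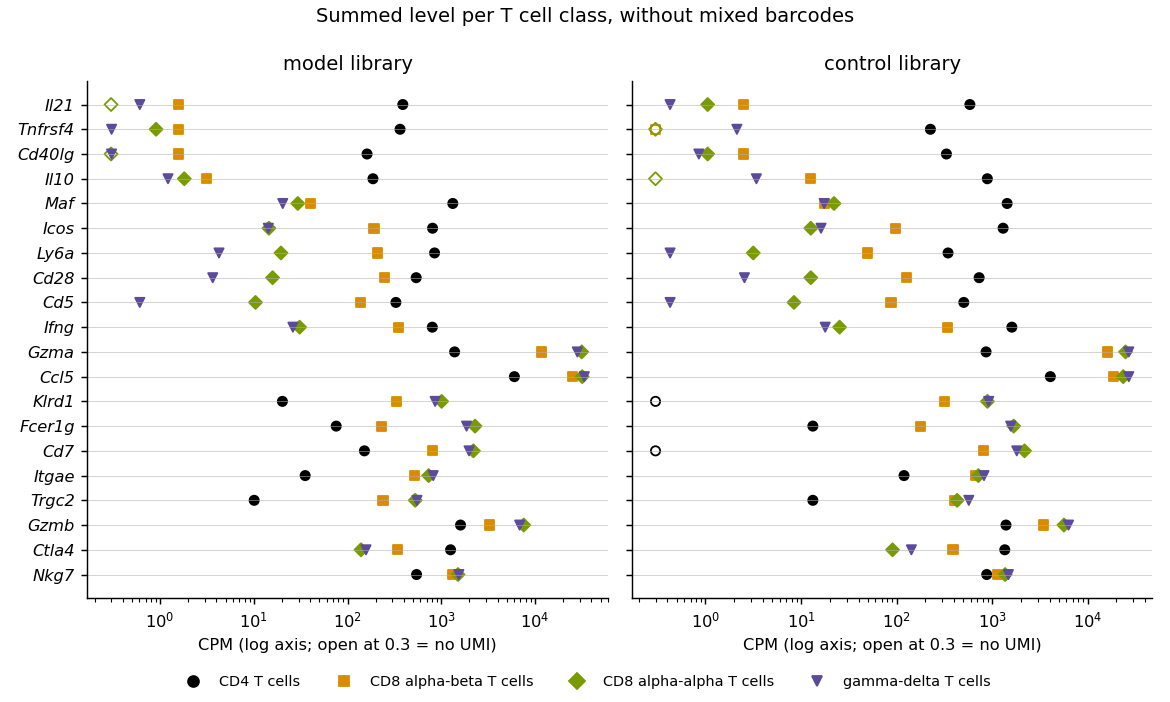
Level in CPM on a log axis of 20 genes in CD4 T cells and the 3 other T cell classes, without mixed barcodes, in the model library (left) and the control library (right). Points drawn open at 0.3 stand for no UMI; Il21, Cd40lg and Maf are highest in CD4 T cells, and Gzma and Klrd1 in the other classes.

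Within the class, the T helper 1 gate was the one that held many cells. Each cell was thinned to 1000 UMIs so that depth did not set the shares, which left out 1 model and 2 control cells. Tbx21 or Ifng was then seen in 25 of 73 model cells, 34.2% (23.5 to 46.3), and in 17 of 31 control cells, 54.8% (36.0 to 72.7). Unthinned, the shares were 48.6% in the model library and 60.6% in the control library. Epithelial cells gave 0.17% in the model library and 0.21% in the control library, CD8 alpha-beta T cells 21.4% (model) and 17% (control), CD8 alpha-alpha T cells 8.27% (model) and 6.39% (control), and gamma-delta T cells 10.2% (model) and 7.34% (control), each thinned. At the limit of 25% mitochondrial UMIs the model and control intervals of the CD4 T cells overlap. Without mixed barcodes the shares were 35.4% in the model library and 61.5% in the control library. With a mitochondrial limit of 10% they were 26.5% (16.5 to 38.6) in the model and 60.0% (40.6 to 77.3) in the control library, and these intervals do not overlap. The random draw of the thinning also moved these shares. Under that limit cells were only removed, yet the control count went from 17 of 31 cells to 18 of 30.

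The other gates held few cells. No member of either library had a Foxp3 UMI, which allows a share of up to 4.05% in the model library and 9.09% in the control library for cells with a UMI. Foxp3 had 2 UMIs in the whole model library and 6 in the whole control library, so it was hardly captured at all in these data. Cxcr5 or Bcl6 was seen in 2 model cells (2.74%) and 1 control cell (3.23%), beside 0.74% (model) and 0.69% (control) of epithelial cells, all thinned. Unthinned, the shares were 14.9% in the model library and 3.03% in the control library, beside 6.52% (model) and 4.43% (control) of epithelial cells. No member had Gata3 together with Il4, Il5 or Il13.

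**Figure D3:**
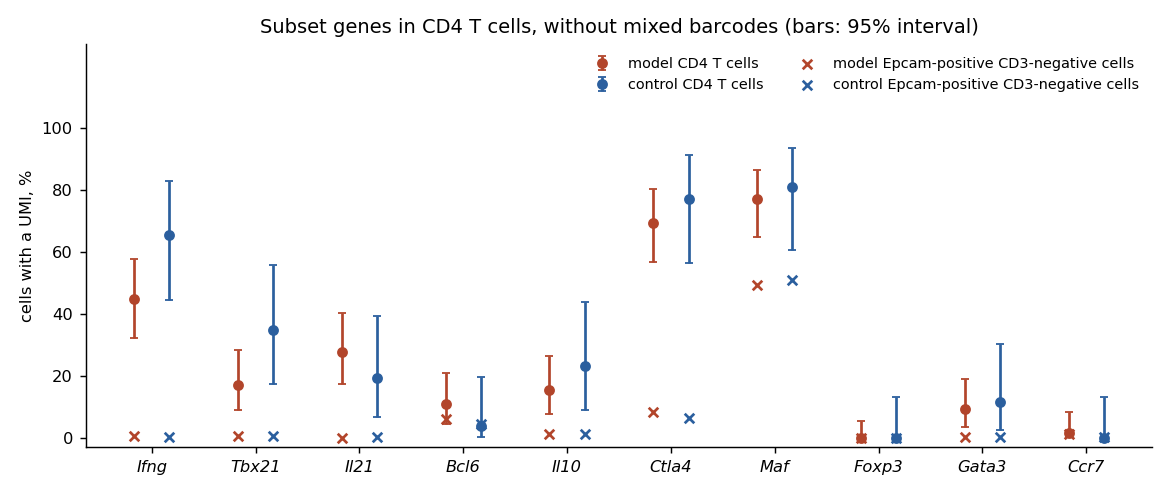
Percent of CD4 T cells with at least 1 UMI of 10 subset genes, unthinned and without mixed barcodes, in the model library (left of each pair) and the control library (right), as circles with exact 95% intervals. Crosses give the same share in epithelial cells; Ifng, Ctla4 and Maf are seen in many CD4 T cells, and Foxp3 in none.

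The cytokines of the CD4 T cells came in large amounts from few cells, so that single cells decide some of the differences between libraries. Ifng (ENSMUSG00000055170), the T helper 1 cytokine, had 159 UMIs in 29 of 65 model cells, at most 22 in a cell, and 121 UMIs in 17 of 26 control cells, at most 43 in a cell. Its level was 802 CPM in the model library and 1609 CPM in the control library, a ratio of 0.50 (0.39 to 0.64) and lower in the model library. Without the highest cell of each library the ratio was 0.67, and among cells with at least 2 Cd4 UMIs the log2 ratio was 0.036. Epithelial cells had an Ifng UMI in 0.51% (model) and 0.26% (control) of cells, so free RNA gave few Ifng UMIs.

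Il10 (ENSMUSG00000016529) was lower in the model library, at 187 CPM against 891 CPM in the control library, a ratio of 0.21 (0.14 to 0.32). In the model library 10 of 65 cells held its 37 UMIs, at most 11 in a cell. In the control library 6 of 26 cells held 67 UMIs, of which the 3 highest cells had 23, 19 and 19. The shares of positive cells were thus 15.4% in the model library and 23.1% in the control library, and the 3 highest control cells each held more Il10 UMIs than the highest model cell. Without the highest cell of each library the ratio was 0.22.

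Il21 (ENSMUSG00000027718) turned with a single cell. It had 77 UMIs in 18 model cells, at most 15 in a cell, and 44 UMIs in 5 control cells, of which 30 were in 1 cell. The ratio of 0.66 (0.45 to 0.98) became 1.68 without the highest cell of each library, and the direction also turned among cells with at least 2 Cd4 UMIs (log2 ratio of 3.03) and over all members (0.47). Tnf did the same, with 24 UMIs in 11 model cells and 27 in 4 control cells, 81.5% of them in 1 cell: its ratio was 0.34 (0.19 to 0.61), and 1.29 without the highest cells. Il2, the growth factor of T cells, had 1 UMI in 1 model cell and 18 UMIs in 7 control cells, below the limit of 20 UMIs for a comparison. Il17a had 39 UMIs in a single model cell and 2 in a single control cell.

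Of the chemokines, Ccl3, an inflammatory chemokine, was higher in the model library, with 125 UMIs in 18 cells against 15 UMIs in 5 control cells, a ratio of 3.16 (1.85 to 5.82). Xcl1, which draws cross-presenting dendritic cells, was lower, with 6 UMIs in 5 cells against 16 in 7 control cells, a ratio of 0.14 (0.046 to 0.38). Ccl5 was the most abundant, with 1194 UMIs in 48 model cells and 306 in 24 control cells, and Ccl4 had 703 in 32 model cells and 317 in 11 control cells. Their ratios of 1.48 (1.31 to 1.68) and 0.84 (0.74 to 0.96) did not reach the 1.5-fold limit. Over the cytokine list, 3 of 14 genes measured were higher in the model library (Ccl3, Il17a and Areg) and 6 lower (Ifng, Il10, Il21, Tnf, Xcl1 and Tnfsf11), beside 7.92% and 7.09% of all genes, with a median log2 ratio of -0.63. Il17a (39 model and 2 control UMIs) and Areg (37 model and 2 control) reached 20 UMIs through the model library alone. They could hardly be called lower, so the count of higher genes is no result about the list. Areg, a growth factor for epithelium, was seen in 9.23% of CD4 T cells of the model library but in 43.4% of epithelial cells. Its share therefore does not tell expression in CD4 T cells from background.

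**Figure D4:**
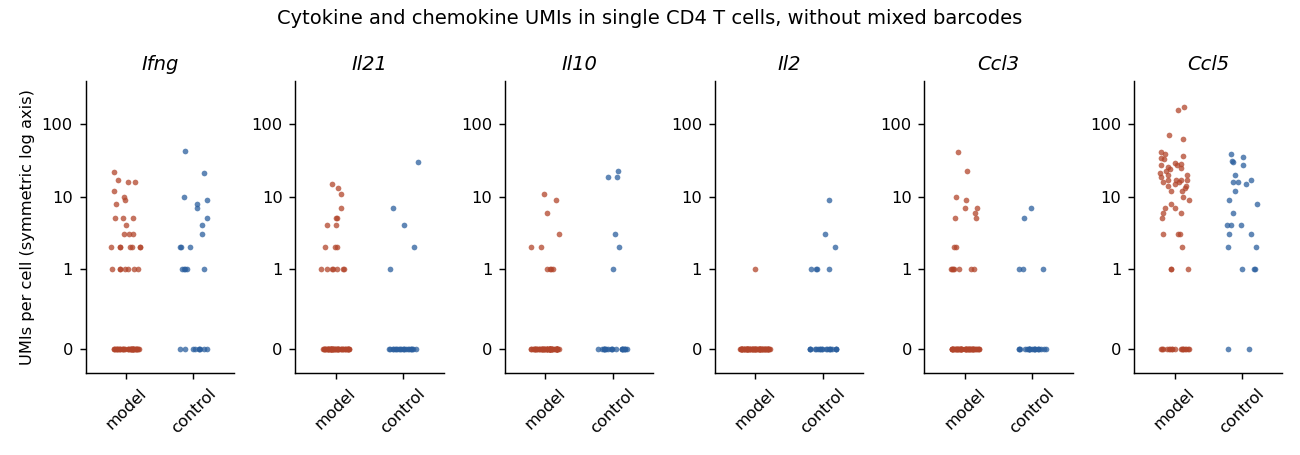
UMIs of 6 cytokine and chemokine genes in each single CD4 T cell that was not mixed, on a symmetric log axis, with the 65 model cells left of the 26 control cells for each gene. A few cells hold most UMIs of Ifng, Il21 and Il10, and the highest single cells of these 3 genes are control cells.

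Cytokines were shared between cells in part. Ifng and Il21 were seen together in 13 of the 18 model cells and 4 of the 5 control cells with Il21. Ifng and Il10 were seen together in 2 of 10 model cells and 5 of 6 control cells with Il10. Of these Il10 cells, 9 model and 6 control cells had a Maf UMI, and 10 model and 6 control cells had a Ctla4 UMI. Cells with Tbx21 or Ifng (34 model and 19 control cells) held Il21 at a higher level than cells without (31 model and 7 control cells), with ratios of 3.09 (1.71 to 5.96) in the model library and 8.39 (2.18 to 71.5) in the control library. Gzma lay on the other side, at 0.040 (model) and 0.11 (control) of the level of cells without. Single cells weigh heavily here, since 1 cell held 30 of the 44 control Il21 UMIs and 1 cell most of the model Gzma UMIs. Il21 was seen in 14 of 34 and 4 of 31 model cells, and in 4 of 19 and 1 of 7 control cells. For Gzma these were 9 of 34 and 10 of 31 model cells, and 6 of 19 and 6 of 7 control cells. These cells were split by a measured transcript, so the values describe them and compare no groups of the study.

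Over all genes, 504 of 4055 (12.4%) were higher and 512 (12.6%) lower in the model library when all members were summed. The rule for size named 24 genes there: Reg1, Fabp1, Rbp2, Fabp2, Sis, Apoa4, Slpi, Selenop, Gda, Rarres2, Igfbp6 and H1f5 were higher, and Spink4, Agr2, Tff3, Muc2, Fcgbp, Dmbt1, Guca2a, Cps1, Cldn4, Ccnd1, F3 and Ccl9 were lower. Fabp1, which carries fatty acids in enterocytes, had 554 UMIs in the model library and 22 in the control library, of which the mixed barcodes held 95.5% in the model library and 72.7% in the control library. Muc2, the goblet cell mucin, had 15 model and 343 control UMIs, of which they held 40% (model) and 98.3% (control).

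Without the mixed barcodes 181 of 2286 genes (7.92%) were higher in the model library and 162 (7.09%) were lower, with a median log2 ratio of 0.05 over all of them. With the 2 deepest model cells left out as well, 72 genes were higher and 100 lower. Most of the 12 genes named as highest serve growth and division. For each of the 12, a single model cell held between 8.47% (Arpc5) and 82.0% (H1f5) of the model UMIs. Ran, a nuclear transport GTPase, had 147 UMIs in the model library and 14 in the control library, a ratio of 3.99 (2.30 to 7.47), and Ncl, nucleolin, had 202 model and 23 control UMIs, a ratio of 3.33 (2.16 to 5.38). Arpc5, a subunit of the actin-branching Arp2/3 complex, had 118 UMIs in 43 model cells and 12 in 11 control cells, a ratio of 3.73 (2.06 to 7.43), and Slc25a5, the mitochondrial ADP/ATP carrier, had 103 model and 10 control UMIs, a ratio of 3.91 (2.04 to 8.40). Without the highest cell of each library the ratios were 2.66 for Ran, 2.62 for Ncl, 4.10 for Arpc5 and 3.70 for Slc25a5.

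The others of the 12 were Pclaf, H1f5, Mcm6, Tuba1b, Tubb5, Ranbp1, Fbl and Pycard. Pclaf, a factor bound to the replication clamp, had 40 UMIs in 3 model cells and 0 in the control library, at least 5.06-fold higher. H1f5, a linker histone of dividing cells, had 50 UMIs, 82.0% of them in 1 cell, and 1 in the control library. Pycard had a log2 ratio of -0.90 over all members. All of the 12 but Mcm6 and Tubb5 were seen in a larger share of epithelial cells than of CD4 T cells in the model library, as were Mki67, Top2a and Stmn1. Epithelial cells were deeper, so these shares do not tell expression in CD4 T cells from background. By level summed over both libraries, Ncl, Arpc5, Fbl and Mcm6 were highest in CD4 T cells among the classes compared. The others of the 12 were higher in another class. Of 28 proliferation genes 11 reached 20 UMIs, some of them through the model library alone, so no count or median is given for the list. Mki67 had 28 UMIs in 4 model cells and 1 in the control library, Top2a 37 in 3 model cells and 0 in the control library, and Stmn1 37 in 6 model cells and 0 in the control library.

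The 12 genes named as lowest in the model library held the cytokines Il10 and Tnf and several surface receptors and transcription factors. Cd69, an early activation and retention receptor, had 113 UMIs in 41 model cells and 102 in 19 control cells, a ratio of 0.42 (0.32 to 0.56). Nr4a3, an orphan receptor induced by T cell receptor signals, had 65 model and 62 control UMIs, a ratio of 0.40 (0.28 to 0.57). Il7r, the survival receptor for interleukin 7, had 41 model and 41 control UMIs, a ratio of 0.38 (0.24 to 0.60), and Slamf1, a co-stimulatory receptor, 22 model and 27 control UMIs, a ratio of 0.31 (0.17 to 0.56). These 4 genes were rare in epithelial cells, where Cd69 was seen in 12.8% (model) and 9.50% (control), Nr4a3 in 2.71% (model) and 3.22% (control), Il7r in 0.69% (model) and 1.05% (control), and Slamf1 in 0.77% (model) and 0.49% (control) of cells. Vps37b, Dennd4a, Pik3r1, Tob2, Fosl2 and Fos made up the rest, with ratios between 0.32 and 0.43. Fos was seen in 55.4% of CD4 T cells of the model library and 65.4% of those of the control library, but in 86.4% (model) and 85.9% (control) of epithelial cells. In the model library Fosl2, Pik3r1 and Tob2 were also seen in a larger share of the deeper epithelial cells. These shares do not tell expression in CD4 T cells from background. By level summed over both libraries, Fosl2 and Tob2 were highest in CD4 T cells among the classes compared, and Fos and Pik3r1 in other classes.

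The immediate early and receptor-induced list leaned the same way. Of 33 genes measured 14 were lower and 2 higher in the model library, beside 7.09% and 7.92% of all genes, and the median log2 ratio was -0.63. Tnfaip3, the NF-kB brake A20, had 216 UMIs in 59 model cells and 148 in 25 control cells, which is 1090 CPM in the model and 1968 CPM in the control library and a ratio of 0.55 (0.45 to 0.69). Nr4a2 had 128 model and 86 control UMIs, a ratio of 0.56 (0.43 to 0.75), Irf4, a factor of effector differentiation, 25 model and 22 control, a ratio of 0.43 (0.23 to 0.80), and Dusp1, a MAP kinase phosphatase, 122 model and 84 control, a ratio of 0.55 (0.41 to 0.74). Btg2, Jun, Fosb, Nfkbid, Zfp36l1, Dusp5, Fos, Fosl2, Cd69 and Nr4a3 were the other 10. Dusp2, a phosphatase of activated lymphocytes, went the other way with 103 model and 24 control UMIs, a ratio of 1.63 (1.04 to 2.66), as did Irf8 with 26 model and 2 control UMIs. In the model library Fos, Fosl2, Fosb, Jun, Btg2 and Irf8 were seen in a larger share of epithelial cells than of CD4 T cells.

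The size of this difference depended on how cells were summed. The median of the list was -0.51 after thinning to 1000 UMIs, -0.30 with each cell weighted equally, and -0.054 over all members. There 5 genes were lower and 1 higher, beside 12.6% of all genes lower and 12.4% higher. Jun and Tnfaip3 were higher over all members, at log2 ratios of 0.11 and 0.14. In the Cd4-negative cells with CD4 T cell markers, which are other cells, the list did not lean: of 30 genes measured 6 were higher and 5 lower in the model library, beside 10.3% of all genes measured in these cells each way, with a median of -0.03. In those cells Cd69 had 98 model and 62 control UMIs, a ratio of 0.99 (0.71 to 1.38), and Fos 85 model and 33 control, a ratio of 1.61 (1.07 to 2.49).

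Of 15 interferon response genes measured 4 were higher and none lower in the model library, beside 7.92% of all genes higher and 7.09% lower, and the median log2 ratio was 0.80. With no filter on low counts the median over 33 genes was 0.34. Gbp2 (ENSMUSG00000028270), a guanylate-binding protein that attacks intracellular microbes, had 46 UMIs in 16 model cells and 7 in 4 control cells, a ratio of 2.49 (1.12 to 6.55). Trim30a (ENSMUSG00000030921), a regulator of innate signalling, had 36 UMIs in 21 model cells and 3 in 3 control cells, a ratio of 4.56 (1.44 to 23.1). Bst2 (ENSMUSG00000046718), tetherin, which holds budding virus at the cell surface, had 42 UMIs in 18 model cells and 6 in 6 control cells, a ratio of 2.66 (1.12 to 7.65). Gbp2, Trim30a and Bst2 each passed the filter on low counts through the model library alone. With few control UMIs they could hardly be called lower, so the counts of higher and lower genes are no result about the list. The median of 0.80 rests on the same filter.

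The limits of these 3 genes differ. Bst2 was seen in 27.7% of CD4 T cells of the model library and 23.1% of those of the control library, against 34.0% (model) and 21.4% (control) of epithelial cells. Its share in the model library therefore does not tell expression in CD4 T cells from background, and after thinning its log2 ratio was -0.15. Gbp2 and Trim30a were rare in epithelial cells, at 2.34% (model) and 2.43% (control) for Gbp2 and 10.1% (model) and 6.46% (control) for Trim30a. Bst2 and Irf8 also stand in the list of plasmacytoid dendritic cell markers. That list took 0.0913% of the UMIs of CD4 T cells in the model library, with 0% to 0.664% in single cells, and 0.0917% in the control library, with 0% to 0.262%, and its part in the result was not tested. Isg15, a ubiquitin-like protein, had 36 model and 6 control UMIs, a ratio of 2.28 (0.95 to 6.61). Ly6a, in no list and picked after its values were seen, had 168 model and 26 control UMIs and was higher in the model library, with a ratio of 2.45 (1.62 to 3.86). In the Cd4-negative cells with CD4 T cell markers 6 genes of the list were measured, of which 0 were higher and 1 lower, beside 10.3% each way. Gbp2 had 11 model and 1 control UMIs there.

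**Figure D5:**
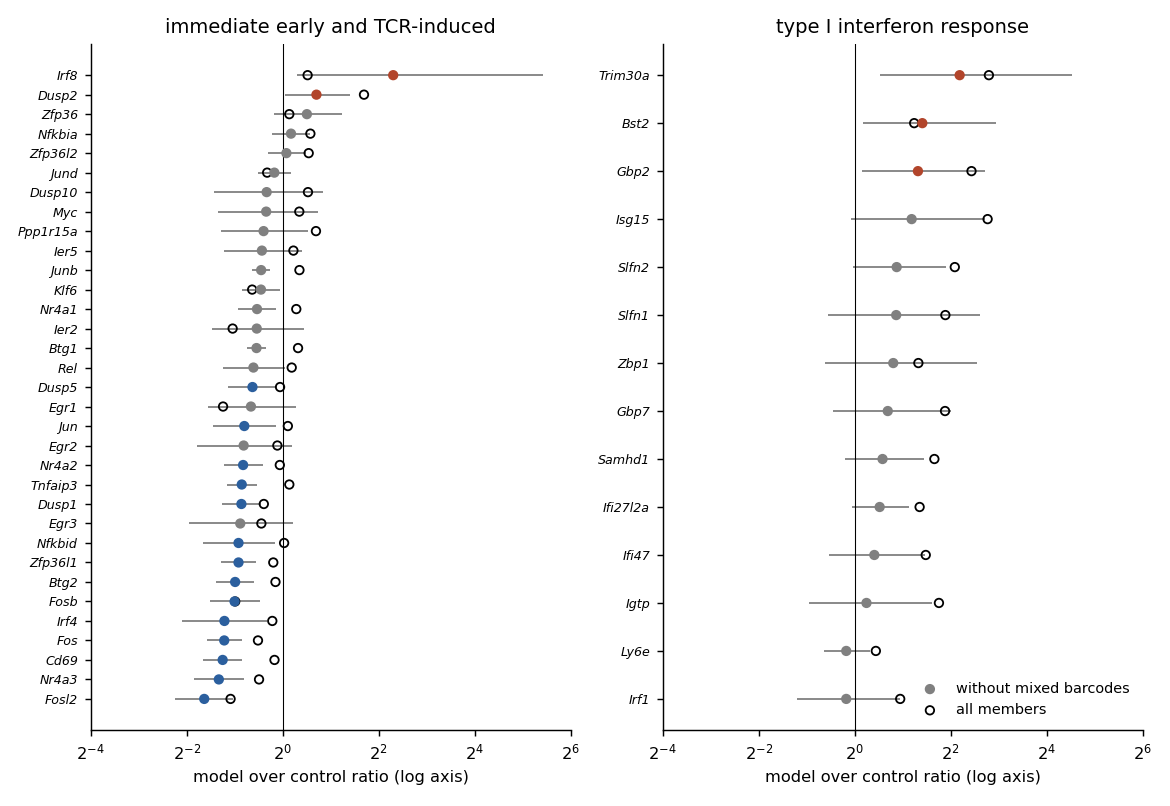
Ratio of the model over the control library in CD4 T cells without mixed barcodes, on a log axis, for 33 immediate early genes and 14 of the 15 interferon response genes, with lines for 95% counting intervals. Red points are higher and blue points lower in the model library, grey points neither, and open circles show all members; most immediate early genes lie below 1, and Gbp2, Trim30a and Bst2 above it.

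Genes of the interferon response are switched on through a short promoter element bound by IRF proteins, so the promoters of these 3 called genes are shown. A pair of GAAA repeats with any 2 bases (NN) between them was searched on both strands in windows that run 250 bases before to 50 bases after a gene's start, from RefSeq on GRCm38.p6. The pair and its 2 spacer bases are in capitals, on whichever strand they were found. Gbp2 lies at chr3:142620413-142620712 on the plus strand, Trim30a at chr7:104446076-104446375 and chr7:104465144-104465443 on the minus strand, for 2 starts, and Bst2 at chr8:71537423-71537722 on the minus strand.
Gbp2 (chr3:142620413-142620712, +): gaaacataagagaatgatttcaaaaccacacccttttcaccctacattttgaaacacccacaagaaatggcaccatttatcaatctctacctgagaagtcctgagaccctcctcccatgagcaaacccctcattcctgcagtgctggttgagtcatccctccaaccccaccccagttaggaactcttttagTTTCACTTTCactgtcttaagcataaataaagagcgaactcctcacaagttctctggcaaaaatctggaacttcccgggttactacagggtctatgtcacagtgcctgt
Trim30a (chr7:104446076-104446375, -): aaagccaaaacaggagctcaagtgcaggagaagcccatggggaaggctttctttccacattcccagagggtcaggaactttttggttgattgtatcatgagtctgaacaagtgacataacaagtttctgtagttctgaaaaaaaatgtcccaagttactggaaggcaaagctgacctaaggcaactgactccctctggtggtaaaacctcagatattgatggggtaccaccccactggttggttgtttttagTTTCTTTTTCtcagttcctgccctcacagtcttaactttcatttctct
Trim30a (chr7:104465144-104465443, -): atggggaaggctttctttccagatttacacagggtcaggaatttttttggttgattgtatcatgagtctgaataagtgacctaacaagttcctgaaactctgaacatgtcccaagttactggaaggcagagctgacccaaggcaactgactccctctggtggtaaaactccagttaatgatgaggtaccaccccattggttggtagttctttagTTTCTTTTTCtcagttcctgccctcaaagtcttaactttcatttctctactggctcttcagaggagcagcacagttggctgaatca
Bst2 (chr8:71537423-71537722, -): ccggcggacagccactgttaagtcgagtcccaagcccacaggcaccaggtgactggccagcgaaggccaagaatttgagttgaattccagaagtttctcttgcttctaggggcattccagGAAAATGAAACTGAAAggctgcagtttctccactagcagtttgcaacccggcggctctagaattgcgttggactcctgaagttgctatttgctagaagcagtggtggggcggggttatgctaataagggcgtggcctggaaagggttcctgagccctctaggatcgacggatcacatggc

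Counted along the gene with its start as 0, the first base of the match lay at -59 in Gbp2, at 2 and -36 in the 2 promoters of Trim30a, all on the strand opposite to the gene, and at -130 and -124 in Bst2, on its own strand, where the 2 matches overlap. Of the 15 list genes measured 11 had a promoter in the table, and 6 of these held the pattern, namely Bst2, Gbp2, Gbp7, Igtp, Isg15 and Trim30a. Among all genes measured in CD4 T cells 80 of 1812 with a promoter held it (4.42%), and among all promoters 1131 of 32851 (3.44%). A match describes these letters and is no evidence that a factor binds there.

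Several genes of T cell receptors and their signalling were lower in the model library. Of 20 genes of the T cell receptor complex and its proximal signalling 4 were lower and none higher, beside 7.92% of all genes higher and 7.09% lower, with a median log2 ratio of -0.36. They were Trbc1, a constant region of the beta chain, with 84 UMIs in the model library and 50 in the control library, Lat, the adaptor of the receptor, with 73 model and 43 control UMIs, Thy1 with 34 model and 31 control UMIs, and Cd5 with 65 model and 38 control UMIs. Trac stood at 168 model and 75 control UMIs, a ratio of 0.85. Over all members the list turned, with 8 genes higher and none lower, beside 12.4% of all genes higher and 12.6% lower, and a median of 0.64. Trbc1 and Lat turned with it, at 0.23 and 0.54.

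Of 13 co-stimulation genes Icos, Slamf1, Cd40lg and Cd5 were lower and Slamf6 higher, beside 7.92% of all genes higher and 7.09% lower, with a median log2 ratio of -0.43 and of 0.50 over all members. Icos (ENSMUSG00000026009) had 160 UMIs in 48 model cells and 98 in 21 control cells, a ratio of 0.62 (0.48 to 0.81), and over all members a log2 ratio of 0.40. Cd40lg had 32 model and 25 control UMIs, a ratio of 0.49 (0.28 to 0.86). Slamf6, a receptor of follicular and memory cells, had 20 UMIs in 14 model cells and 0 in the control library, at least 2.53-fold higher. It reached the limit of 20 UMIs through the model library alone, so it could only be called higher. Cd28 had 107 model and 55 control UMIs, a ratio of 0.74 (0.53 to 1.04), Tnfrsf4 72 model and 17 control, a ratio of 1.61 (0.94 to 2.91), Ctla4, the inhibitory counterpart of CD28, 249 model and 102 control, a ratio of 0.93 (0.73 to 1.18), and Maf 263 model and 108 control, a ratio of 0.92 (0.74 to 1.17). The intervals of these 4 genes span 1. Of 9 cytokine receptors measured 4 were lower and none higher, beside 7.92% of all genes higher and 7.09% lower: Il7r, Tnfrsf1b (36 model and 30 control UMIs), Il21r (26 model and 24 control) and Ifngr1 (54 model and 42 control), and the list had a median of -0.55.

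The homing and residency list had 2 genes higher and 2 lower of 24, which is close to the 7.92% and 7.09% of all genes, with a median log2 ratio of -0.49 and of 0.43 over all members. Cxcr4, the receptor for CXCL12, had 35 UMIs in 16 model cells and 1 in 1 control cell, a ratio of 13.3 (2.23 to 540), and was seen in 4.31% (model) and 2.52% (control) of epithelial cells. S100a6, a calcium-binding protein, was also higher, with 62 model and 10 control UMIs. Ccr9, the receptor that draws T cells to the small intestine, had 72 model and 46 control UMIs, a ratio of 0.59 (0.41 to 0.88), and a log2 ratio of 0.43 over all members. Cxcr6, a residency receptor, had 43 model and 26 control UMIs, a ratio of 0.63 (0.38 to 1.06), and Rgs1, which dampens chemokine signals, 274 model and 109 control, a ratio of 0.95.

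Among helper programs the T helper 1 list had 5 of 12 genes lower and 1 higher, beside 7.92% of all genes higher and 7.09% lower, with a median log2 ratio of -0.77. Ifng, Tnf, Il12rb2, the interleukin 12 receptor chain of T helper 1 cells, and Bhlhe40, a factor that restrains Il10, were among the lower genes, and Il12rb2 had 16 model and 14 control UMIs, a ratio of 0.43 (0.20 to 0.96). Among cells with at least 2 Cd4 UMIs the median of this list was -0.03, and over all members 0.04. Tbx21 itself had 14 UMIs in 11 model cells and 11 in 9 control cells, a ratio of 0.48 (0.20 to 1.18). Of 8 regulatory T cell genes 1 was higher and 3, Il10, Icos and Tnfrsf1b, were lower, beside 7.92% of all genes higher and 7.09% lower. The higher one, Ikzf2, the factor Helios, had 49 UMIs in 14 model cells and 5 in 3 control cells, a ratio of 3.72 (1.49 to 12). The list had a median log2 ratio of -0.20 and of 0.72 over all members. Rora, a factor of T helper 17 cells, was lower with 47 model and 42 control UMIs, a ratio of 0.42 (0.27 to 0.66).

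Of 9 cytotoxic genes 1 was higher and 3 lower in the model library, beside 7.92% of all genes higher and 7.09% lower. The higher one, Gzma, had 275 model and 65 control UMIs, a ratio of 1.61 (1.22 to 2.14), but 76.0% of its model UMIs were in 1 cell. Without the highest cells its log2 ratio was -0.60, and among cells with at least 2 Cd4 UMIs -3.19. Gzma was seen in 29.2% of CD4 T cells of the model library and 46.2% of those of the control library, beside 34.5% (model) and 31.6% (control) of epithelial cells. Fasl, the death ligand, was lower with 24 model and 20 control UMIs, as was Nkg7, a granule protein, with 108 model and 66 control, a ratio of 0.62 (0.45 to 0.86) and over all members a log2 ratio of 0.27. Gzmb, granzyme B, had 318 UMIs in 31 model cells and 105 in 14 control cells, a ratio of 1.15 (0.92 to 1.45).

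Further lists covered stress, metabolism and inflammation. Of 11 heat shock genes 4 were higher, beside 7.92% of all genes higher and 7.09% lower, among them Hsp90aa1 with 161 model and 24 control UMIs and Hspe1 with 171 model and 27 control, and Hspa1a was lower with 10 model and 13 control. Of 12 glycolysis genes 4 were higher and none lower, beside the same shares, among them Pkm (53 model and 10 control UMIs) and Gapdh (204 model and 42 control). Tpi1 had the highest ratio, with 28 model and 3 control UMIs. Hsp90aa1, Hspe1, Pkm and Gapdh were seen in a larger share of epithelial cells than of CD4 T cells of the model library. Of 26 nuclear genes of the respiratory chain 2 were higher and none lower, close to the share of all genes, with a median of 0.02. Over all members 0 of 27 were higher and 11 lower, beside 12.4% of all genes higher and 12.6% lower, with a median of -0.39. Of 12 mitochondrially encoded genes none was called, with a median of -0.14. Of 5 p53 targets measured, a pathway that radiation can switch on, 1, Btg2, was lower and none higher, beside 7.09% of all genes lower and 7.92% higher. The list had a median of 0.02 and of -0.15 over all members. Of 14 NF-kB and inflammatory genes Ccl3 and Bcl2a1d were higher and Tnfaip3, Tnf, Traf1 and Bcl2a1b lower, beside 7.92% of all genes higher and 7.09% lower, with a median of -0.29. Over all members 3 genes of that list were higher and 1 lower, beside 12.4% of all genes higher and 12.6% lower, with a median of 0.40.

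T cell receptor variable genes were too sparsely covered to say how diverse the cells were. A Trbv gene was seen in 5 of 74 model cells, 6.76% (2.23 to 15.1), and 4 of 33 control cells, 12.1% (3.40 to 28.2), beside 8.33% (model) and 15.0% (control) of CD8 alpha-beta T cells. Of 35 Trbv genes in the files 3 were seen in the model library, namely Trbv19 and Trbv2 in 2 cells each and Trbv3 in 1, and 4 in the control library, namely Trbv1, Trbv2, Trbv29 and Trbv3 in 1 cell each. A Trav gene was seen in 2 model cells and 1 control cell, and no cell had 2 or more Trbv genes.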

How the data were processed

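The deposited matrices hold raw UMI counts, whole numbers for each gene in each barcode, per the file headers. They name Cell Ranger 7.0.1, per the file headers, while Cell Ranger 4.0 and the GRCm39 build stand in the submitters' processing notes. Neither the gene annotation nor the use of intronic reads is given in the sources used here. No GRCm39 coordinates are printed, and promoters are RefSeq's on GRCm38.p6. The model library held 11468 barcodes and 76701215 UMIs, and the control library 10259 barcodes and 61370270 UMIs. No columns were left unmapped (0).

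UMIs were summed over the cells of a class in each library and divided by all UMIs of those cells (CPM). Ratios of the model over the control library have exact conditional binomial 95% intervals, and shares exact Clopper-Pearson intervals. No test was made. A gene with at least 20 UMIs over both libraries was called higher or lower at 1.5-fold or more with an interval excluding 1, and a library at 0 was set to 3 counts for a bound. A gene could reach 20 UMIs through the model library alone, and one with few control UMIs could then hardly be called lower. Named genes were the 12 highest and 12 lowest by the interval bound nearest 1, among those with at least 40 UMIs and at 0.2 or more of their highest class level. Against the other T cells 10 were named each way, by the smaller bound of both libraries, besides called and list genes. CD8 alpha-beta T cells had a Cd8b1 UMI, CD8 alpha-alpha T cells a Cd8a but no Cd8b1 UMI, and gamma-delta T cells a Trdc UMI, all with a CD3 UMI and without Cd4. No doublet caller was run. A few results are not reported here. The members and gene lists were chosen with earlier results of these data known, and the mixed barcodes, the Cd4-negative cells and leaving out single cells were added after the data were seen. Scripts were tested on simulated data and used Python 3.11.15, numpy 2.4.6, scipy 1.17.1, pandas 2.3.3 and matplotlib 3.10.9.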

Additional observations from a re-analysis of the deposited data

Results flagged for a closer look

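For 15 genes named in the text, the model and control libraries differed one way in CD4 T cells and the opposite way in CD8 alpha-beta T cells, each past 1.5-fold with an interval excluding 1 and without mixed barcodes. That the classes differ was not tested, since each holds 1 library per group. The search covered only genes named in the text. The share over all genes called in both classes is not given, so the count has no background. Higher in the model library in CD4 T cells, as log2 ratios beside those in CD8 alpha-beta T cells, were Ran (2.00 and -0.72), Fbl (2.26 and -1.21), H1f5 (4.25 and -0.85), Tuba1b (2.37 and -0.91), Ranbp1 (2.21 and -0.75), Hmgb2 (0.84 and -0.62), Hsp90aa1 (1.35 and -0.71) and Ikzf2 (1.90 and -0.81). For Pclaf (2.34 and -1.40) and Top2a (2.23 and -0.71) the CD4 T cell values are lower bounds, because the control library had no UMI. In CD4 T cells a single model cell held 82.0% of the model UMIs of H1f5 and 65% of those of Pclaf. For Tuba1b this was 48.5%, for Ran and Fbl 42.9% and for Ranbp1 40%. Without the highest cell of each library the ratios were 2.66 for Ran, 4.56 for Fbl, 3.32 for Tuba1b and 3.87 for Ranbp1, and H1f5 had no control UMI left. Lower in the model library in CD4 T cells were Fasl (-1.13 and 0.69), Icos (-0.69 and 0.98), Slamf1 (-1.69 and 2.18), Tnf (-1.57 and 1.34) and Cd5 (-0.62 and 0.65). The CD4 T cell value of Tnf turned to 0.37 without the highest cell of each library, that of Fasl to 1.38 after thinning, and those of Icos and Cd5 to 0.40 and 0.39 over all members.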

How the results depend on the processing

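Over all members, 504 genes were higher and 512 lower in the model library, against 181 and 162 without the 16 mixed barcodes. Over all members, higher and lower genes numbered 234 and 180 with at least 2 Cd4 UMIs, 267 and 199 without the 8% deepest cells, 31 and 47 thinned, and 128 and 147 with a filter of 100 UMIs, and 775 were lower with no filter. Without mixed barcodes, higher genes numbered 99 without the 8% deepest cells, 27 thinned, 31 with a filter of 100 UMIs and 72 without the 2 deepest model cells. Lower genes numbered 94 with at least 2 Cd4 UMIs, 38 thinned, 39 with that filter, 291 with no filter and 100 without the 2 deepest cells. The log2 ratio of the share was 0.34 among CD3-positive cells without mixed barcodes. Genes lower than in CD8 alpha-beta, CD8 alpha-alpha and gamma-delta T cells in both libraries numbered 65, 162 and 148 without mixed barcodes.

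The median of the immediate early list was -0.30 with cells weighted equally and -0.054 over all members, and that of the interferon list 0.34 with no filter and 1.57 over all members. Among list medians that reversed over all members were those of the receptor (0.64), homing (0.43), co-stimulation (0.50), regulatory (0.72), cytotoxic (1.08) and NF-kB (0.40) lists. So did Pycard (-0.90), Icos (0.40), Cd5 (0.39), Areg (-0.48), Il21 (0.47), Bhlhe40 (0.035), Nkg7 (0.27), Ccr9 (0.43), Tnfaip3 (0.14), Trbc1 (0.23), Lat (0.54), Hspe1 (-0.012), Jun (0.11) and Bcl2a1b (0.14), as log2 ratios. With at least 2 Cd4 UMIs Cd5 (0.22), Il21 (3.03), Ifng (0.036) and Gzma (-3.19) reversed. Without the highest cells Tnf (0.37), Il21 (0.75) and Gzma (-0.60) did, and after thinning Tnfsf11 (0.68), Bst2 (-0.15) and Fasl (1.38). Of the genes named over all members, Reg1 (-0.076), Rbp2 (-0.23) and Fabp2 (-1.50) reversed without mixed barcodes, and Dmbt1 (0.65) without the 8% deepest cells. The cause was not tested. The other 1048 values of single genes stayed within their counting intervals, 158 moved without reversing, and 40 gave no value because a library was at 0.

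Leaving out cells with at least 2 UMIs of other lineages' markers was not run, since 73 of 74 model and 33 of 33 control members have them. Cells without Foxp3 are the same cells. No paired analysis was possible because each group has 1 library. Depth limits most genes: 2286 reached 20 UMIs in the 65 model and 26 control cells.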
